A study of Mus musculus with 12 samples.

Results

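The genes described here are 10 transcripts that mark the endothelium of the liver sinusoids: Stab1, Stab2, Lyve1, Oit3, Kdr, Plvap, Cdh5, Pecam1, Flt4 and Ptprb. They were taken by name, as the rows of both count tables whose Ensembl identifier GENCODE M21 (GRCm38) gives to these symbols. All 10 were found among the 32285 identifiers of the HSC table and the 56980 of the macrophage table, and all 10 passed the filter on low counts in both. Cells came from the livers of E14.5 mouse embryos. All were homozygous for a floxed Jag1 allele (Jag1 f/f), the controls included. The embryos either lacked or carried the VavCre transgene, in which the Vav promoter drives Cre recombinase. Whether Cre acted in endothelial cells was not tested. The HSC samples, for which the strain is given as C57BL/6, are also labelled WT where they lack VavCre and Mutant where they carry it. The sort for hematopoietic stem cells (HSCs) took DAPI- cells positive for CD45, cKit, Sca1 and CD150 and negative for lineage markers and CD48, 2000 cells per library. Macrophages were sorted as CD169+ cells, 1000 to 3000 per library. Each of the 4 groups, VavCre- and VavCre+ in either sort, held 3 libraries. Neither gate selects endothelium. The labels do not say that libraries came from separate embryos, so p-values measure only the spread between libraries, which may be technical.

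Sinusoids are the wide, leaky capillaries of the liver, through which fetal blood cells leave and enter the tissue. Their endothelial cells take up hyaluronan, modified lipoproteins and other waste from blood by scavenger receptors, carry open pores in their walls, and grow under signals of the VEGF family. Several of the genes are not restricted to them: Pecam1 is also found on HSCs, megakaryocytes and macrophages, and Lyve1 and Stab1 also on some tissue macrophages. In bulk samples, fewer cells of a type and less RNA per cell cannot be told apart.

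The stretch before the transcription start is shown for the members that have an entry in the RefSeq promoter table (GRCm38.p6). Whether it bears on how the members vary was not tested. For 4 of the 10 an entry was found. The 250 bases upstream of the RefSeq start are printed, 5′ to 3′ on the gene's strand, for Stab1 and Kdr, where this start lies within 3 bases of the GENCODE start. By GENCODE the window of Flt4 lies wholly within the gene, and 83 bases of the Stab2 window do, so neither is shown. Capitals mark GGAA or its reverse complement TTCC, the core of the sites bound by ETS factors such as ERG and FLI1, which control many endothelial genes. The Stab1 window is chr14:31168642-31168891 and the Kdr window chr5:75978456-75978705, both on the minus strand.
Stab1: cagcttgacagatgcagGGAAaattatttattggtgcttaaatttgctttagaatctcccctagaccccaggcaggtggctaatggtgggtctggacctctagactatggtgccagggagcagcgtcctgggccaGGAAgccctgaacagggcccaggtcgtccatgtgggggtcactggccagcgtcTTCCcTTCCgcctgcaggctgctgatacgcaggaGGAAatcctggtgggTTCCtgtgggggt
Kdr: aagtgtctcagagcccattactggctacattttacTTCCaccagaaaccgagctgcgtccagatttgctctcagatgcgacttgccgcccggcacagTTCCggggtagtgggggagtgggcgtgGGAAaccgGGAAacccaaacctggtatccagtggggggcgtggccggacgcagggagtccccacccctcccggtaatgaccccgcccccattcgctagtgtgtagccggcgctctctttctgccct
The Stab1 window held 6 copies of the core, counted on both strands, and the Kdr window 4. The core is short and common: 93.4% of 32851 promoter windows of this length held at least 1 copy, the median was 3, and 8.69% held 6 or more. The G and C content was 57.2% for Stab1 and 61.6% for Kdr, against a median of 52.4% over all windows. The motif TGTTTAC of forkhead factors, searched on both strands, had no match in either window and a match in 3.17% of all. GATA, searched likewise, had 1 match in each window and a match in 53.6% of all. CACGTG had 0 matches in either window and a match in 6.02% of all.

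The libraries of the HSC sort held 51982064 to 77463770 counted reads, those of VavCre- macrophages 17230019 to 24658205 and those of VavCre+ macrophages 2602934 to 5366990, so that depth went with genotype in the macrophage sort. The fewest reads on any member in any library were 861, for Pecam1. Jag1, the targeted gene, measured 52.6, 21.1 and 26.3 CPM in VavCre- and 0, 10.6 and 6.79 CPM in VavCre+ macrophage libraries (CPM, read counts scaled to a common library size with TMM factors). In HSCs it measured 6.53, 6.87 and 1.16 CPM without and 10.5, 0 and 19.5 CPM with the VavCre label, so the counts do not bear the HSC label out, and the 3 HSC libraries are called those labelled VavCre+. A gene-level count also takes in exons outside the floxed part.

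Endothelial transcripts made up a visible share of both sorts, in every library larger than the share of 16 macrophage markers. The 10 genes took 1.28%, 0.874% and 0.614% of reads in VavCre- HSC libraries and 0.672%, 0.607% and 0.801% in those labelled VavCre+. In macrophage libraries they took 1.72%, 0.835% and 0.854% without and 1.49%, 1.81% and 1.40% with VavCre. In the macrophage sort the 2 libraries with the smallest share, VavCre- replicates 2 and 3, were also those with the most reads on these macrophage markers, 0.454% and 0.368%, against 0.0721% in VavCre- replicate 1 and 0.0892%, 0.0893% and 0.258% in VavCre+ libraries. Of these markers Adgre1, which encodes F4/80, measured 403 and 375 CPM in those libraries and 22.3 to 70.8 CPM in the other 4, and Csf1r, the receptor for macrophage colony-stimulating factor, 856 and 897 CPM against 81.3 to 689 CPM. Siglec1, which encodes the CD169 of the gate, measured 18.2, 115 and 117 CPM in VavCre- and 16.2, 102 and 67.7 CPM in VavCre+ libraries. VavCre- replicate 1 also held 0.410% of reads on 12 hepatoblast markers, where the other 5 macrophage libraries held 0.0486% to 0.0857%, and 0.174% on 12 stellate cell markers, where the others held 0.0139% to 0.0337%. The hepatoblast markers did not all go the same way in that library. Alb measured 1707 CPM there and 77.1 to 232 CPM in the other 5, but Afp 20.2 CPM against 46.8 to 214 CPM. In HSC libraries macrophage markers took 0.0879% to 0.245% and hepatoblast markers 0.192% to 0.381% of reads. The 12 blood and HSC genes took 0.0711%, 0.102% and 0.180% in VavCre- and 0.152%, 0.147% and 0.0931% in HSC libraries labelled VavCre+. They were thus lowest in VavCre- replicate 1 and in replicate 3 labelled VavCre+. Of these genes Ptprc measured 69.9 and 36.9 CPM there, against 117 to 266 CPM in the other HSC libraries. Kit measured 76.6 and 40.1 CPM against 114 to 183 CPM, but Ly6a 156 and 190 CPM against 127 to 160 CPM. Of the 16 macrophage markers 0 were at 0 in every library of a sort, and 2 were at 0 in at least 1 library, Itgam and Fcgr1 in HSCs and Marco and Itgam in macrophages. The part of these other cell types in the results was not tested.

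**Figure D1:**
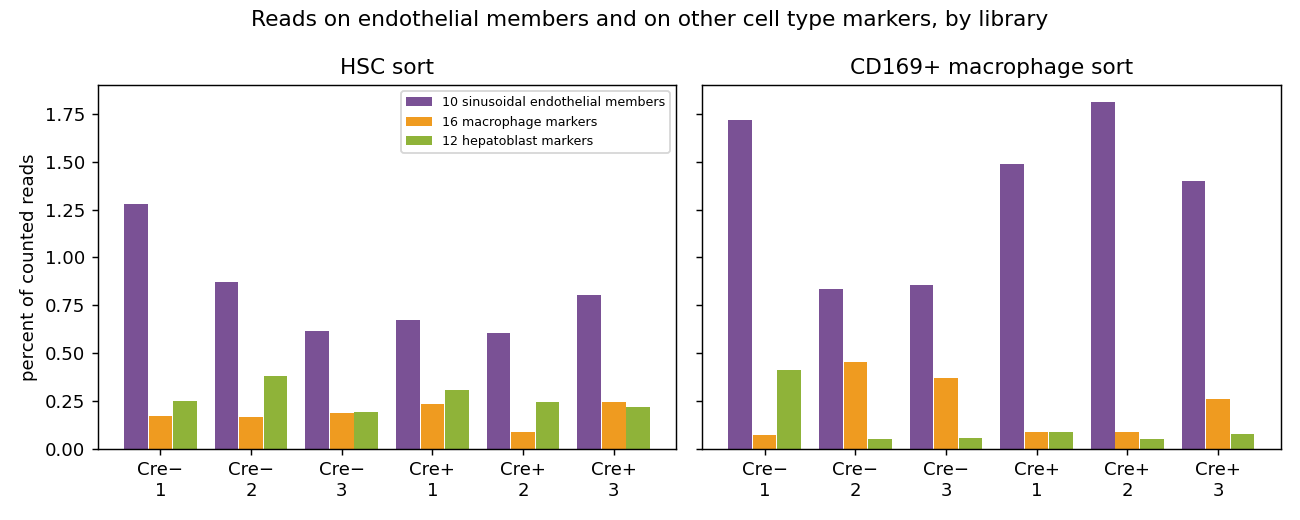
Percent of counted reads on the 10 sinusoidal endothelial genes, 16 macrophage markers and 12 hepatoblast markers in each library, HSC sort on the left and macrophage sort on the right, with Cre− for VavCre- and Cre+ for VavCre+ replicates 1 to 3. In the macrophage sort VavCre- replicates 2 and 3 have the shortest endothelial bars (0.835% and 0.854%) and the tallest macrophage bars (0.454% and 0.368%).

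The scavenger and hyaluronan receptors come first. Stab2, which clears hyaluronan from blood, measured 1269.5, 1091 and 567 CPM in VavCre- HSC libraries and 1058, 982 and 1569 CPM in those labelled VavCre+. In macrophage libraries it measured 5121, 2455 and 2598 CPM without and 3949, 4966 and 4036 CPM with VavCre. The groups overlapped in both sorts, and in the macrophage sort VavCre- replicates 2 and 3 lay below the other 4 libraries. Stab1, its relative, which takes up modified lipoproteins and matrix fragments, measured 419, 441 and 285 CPM in VavCre- HSCs and 339.7, 236 and 740.1 CPM in HSCs labelled VavCre+. The value of replicate 3 labelled VavCre+ lay well above the other 5. In macrophages Stab1 measured 2547, 1428 and 1742 CPM without and 1892, 2007 and 1979 CPM with VavCre, with groups that overlapped.

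Lyve1, a hyaluronan receptor also known from lymphatic vessels, was the member with the most reads in the HSC sort. Its HSC libraries measured 4262, 2475 and 1703 CPM without and 1846, 1679 and 1704 CPM with the VavCre label. Macrophage libraries held 1149.8, 810.1 and 666 CPM without and 1169.9, 1206 and 686 CPM with VavCre. In HSCs VavCre- replicate 1 stood above the rest, and the 3 libraries labelled VavCre+ lay close to each other. The 5 lymphatic markers together took 0.0066% to 0.0128% of reads in HSC libraries and 0.00352% to 0.0118% in macrophage libraries. Of these Prox1, the transcription factor of lymphatic identity, reached 1.41 to 8.84 CPM in HSC libraries and at most 22.8 CPM in macrophage libraries. Pdpn and Ccl21a were at 0 in every HSC library, and the rest of the HSC share fell on Reln and Mmrn1. Oit3, a secreted protein with a zona pellucida domain, measured 3398, 1814 and 1376 CPM in VavCre- HSCs and 1177, 1046 and 1367 CPM in those labelled VavCre+. Each library labelled VavCre+ lay below each VavCre- library, though the nearest libraries, replicate 3 of both groups, were at 1376 and 1367 CPM. In macrophages Oit3 measured 956, 591 and 519 CPM without and 796, 951 and 721 CPM with VavCre, and the groups overlapped.

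Of the VEGF receptors, Kdr (VEGFR2), the main receptor for VEGF-A, measured 867, 536 and 289 CPM in VavCre- HSCs and 383, 396 and 636 CPM in those labelled VavCre+. In macrophages it measured 2356, 1236 and 1272 CPM without and 2149.7, 2781 and 1714 CPM with VavCre. Flt4 (VEGFR3), the receptor for VEGF-C, measured 211, 125 and 90.4 CPM in VavCre- HSCs and 143, 71.6 and 152 CPM in those labelled VavCre+. For both receptors VavCre- replicate 1 held the highest HSC value. The macrophage values of Flt4 were 1259.8, 510.3 and 491 CPM without and 648, 1064 and 792 CPM with VavCre. Both receptors overlapped between genotypes in both sorts, and in the macrophage sort both had their 2 lowest values in VavCre- replicates 2 and 3. The ratio of Kdr to Flt4 reads lay between 2.68 and 5.54 in HSC libraries and between 1.87 and 3.32 in macrophage libraries.

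Plvap, which forms the diaphragms of endothelial pores, measured 2817, 1703 and 1243 CPM in VavCre- HSCs and 1190.0, 1116 and 1337 CPM in those labelled VavCre+. The groups overlapped, since replicate 3 labelled VavCre+ lay above VavCre- replicate 3. In macrophages Plvap measured 549, 424 and 489 CPM without and 416, 853 and 348 CPM with VavCre. There the VavCre+ libraries held both the highest and the lowest values. Cdh5, which encodes VE-cadherin, the adhesion molecule of endothelial junctions, measured 153, 113 and 89.2 CPM in VavCre- HSCs and 98.7, 120.3 and 225 CPM in those labelled VavCre+. In macrophages it measured 1664, 1258 and 1004 CPM without and 1468, 1873 and 1437 CPM with VavCre. The Cdh5 groups overlapped in both sorts, and in HSCs replicate 3 labelled VavCre+ was highest. Ptprb, the phosphatase VE-PTP, which acts on the angiopoietin receptor and on VE-cadherin, measured 145, 108 and 64.1 CPM in VavCre- HSCs and 131, 139 and 166 CPM in those labelled VavCre+. In macrophages it measured 1186, 519 and 474 CPM without and 1129.9, 1331 and 1062 CPM with VavCre, so that VavCre- replicate 1 sat among the VavCre+ libraries. Pecam1 (CD31), which joins neighbouring endothelial cells and is also carried by leukocytes and platelets, measured 358, 309 and 292 CPM in VavCre- HSCs and 176, 140.2 and 159 CPM in those labelled VavCre+. These groups were far apart, the nearest libraries being at 292 and 176 CPM. In macrophages Pecam1 measured 393, 355 and 456 CPM without and 309.8, 614 and 283 CPM with VavCre, and the VavCre+ values lay on both sides of the others.

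**Figure D2:**
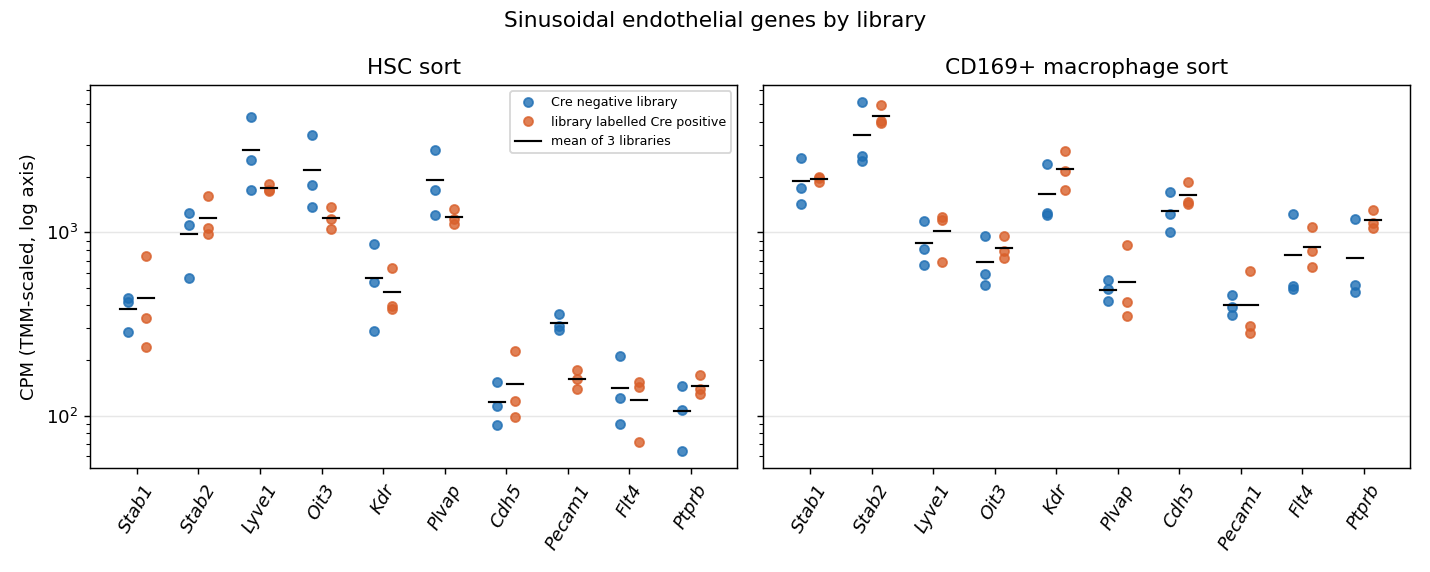
CPM of each member on a log axis, 1 point per library, VavCre- in blue and VavCre+ in orange, with a bar for the mean of 3 libraries. In the HSC sort Pecam1 shows a clear gap between the groups (292 to 358 against 140.2 to 176 CPM), and in the macrophage sort Ptprb has 2 VavCre- points (474 and 519 CPM) below all others.

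The order of levels was compared within each table only, per kilobase of exon (CPM divided by the length of the merged exons), since the tables were counted separately. In the HSC sort Plvap (789 CPM per kb, 562 to 1418 over 6 libraries), Lyve1 (780.4, 575 to 1460.2) and Oit3 (608, 375 to 1219) led, and stood at ranks 16, 17 and 23 of 13953 genes tested that have a length. Stab2 followed at 124 (64.8 to 179), and its range did not touch that of Oit3. Below it came Kdr at 57.4, Stab1 at 39.8, Pecam1 at 38.4, Cdh5 at 31.6, Flt4 at 16.1 and Ptprb at 9.41 CPM per kb, each with a range that overlapped that of its neighbours. The gap between Oit3 and Stab2 was the only one in this order that exceeded the spread over libraries. In the macrophage sort Stab2 led with 440.1 CPM per kb (280.4 to 585, rank 40 of 17552), followed by Cdh5 at 345, Lyve1 at 325, Oit3 at 271, Plvap at 258, Kdr at 212, Stab1 at 188, Flt4 at 96.5, Ptprb at 71.3 and Pecam1 at 64.6. Ranges of neighbours overlapped throughout that order. Cdh5 stood at rank 2234 in the HSC table and at rank 61 in the macrophage table, which were not put on a common scale.

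The members that led in HSCs are those with the least exonic sequence: Plvap has 1987, Oit3 2788 and Lyve1 2919 bases, and the other 7 have 4203 (Cdh5) to 13333 (Ptprb). These 3 held 54.7% to 75.4% of all member reads in HSC libraries and 13.4% to 19.0% in macrophage libraries. Length went with the tables at large too: genes with 6 kb of exon or more took 25.0% to 27.6% of reads in HSC libraries, and 45.3%, 35.4% and 36.2% in VavCre- and 44.2%, 44.8% and 43.8% in VavCre+ macrophage libraries. The macrophage libraries with the least endothelial reads were thus also those with the least reads on long genes, and the part of length in the levels was not tested. The same libraries, VavCre- replicates 2 and 3, had reads on 35022 and 30665 identifiers. VavCre- replicate 1 had reads on 20882, and the shallower VavCre+ libraries on 14655 to 20523. The part of this difference in the levels was not tested either. Stab1 shares exonic bases with Nt5dc2 and Stab2 with Gm16268, both on the opposite strand, and reads there cannot be assigned without strand. On GRCm38 Oit3 lies at chr10:59422958-59441778, Lyve1 at chr7:110850607-110863239, Plvap at chr8:71497765-71511752 and Pecam1 at chr11:106654217-106750628, each on the minus strand, and gene-level counts cover the exons of each, UTRs included.

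Across libraries the members mostly varied together. Of the 45 pairs of members, 42 had a positive Pearson correlation of log2(CPM + 1) over the 6 HSC libraries (median r = 0.66) and 45 over the 6 macrophage libraries (median r = 0.75). Over all pairs of genes tested, 50.5% were positive in HSCs (median 0.01) and 54.8% in macrophages (median 0.07). After subtracting the mean of each genotype the members gave 45 positive pairs in either sort, with medians of 0.78 and 0.80. Of the 90 correlations computed, 1 in HSCs and 5 in macrophages had a Benjamini-Hochberg adjusted p under the threshold of 0.05 by the exact permutation test (two-sided, smallest adjusted p = 0.0417), and 0 by Spearman's rho, with a smallest adjusted p of 0.115 (exact permutation). At an unadjusted p under 0.05 by Pearson's r stood 9 pairs in HSCs and 18 in macrophages. In the 4 macrophage libraries other than VavCre- replicates 2 and 3, a subset chosen after the values were seen, 45 pairs were positive.

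In HSCs the closest pair was Oit3 and Plvap (r = 0.99, exact permutation p = 0.00278, adjusted p = 0.0417; rho = 0.94, exact permutation p = 0.0167, adjusted p = 0.115), and r was 0.91 without the 2 libraries farthest from the median of Oit3. In macrophages Oit3 and Cdh5 were closest (r = 0.97, exact permutation p = 0.00278, adjusted p = 0.0417; rho = 0.94, exact permutation p = 0.0167, adjusted p = 0.115), with r = 0.89 after the same step. The 3 negative pairs in HSCs were those of Pecam1 with Ptprb (r = -0.47), Stab2 (r = -0.25) and Cdh5 (r = -0.23). With exact permutation p of 0.401, 0.694 and 0.664 these are no more than descriptions, and the signs were positive once genotype means were subtracted (0.55, 0.56 and 0.25). By exon length, the 3 pairs among Plvap, Oit3 and Lyve1 had r of 0.965 to 0.994 in HSCs, the 21 pairs among the 7 longer genes a median of 0.66, and the 21 mixed pairs a median of 0.33. Without the 2 libraries farthest from the median of Lyve1, its r was -0.086 with Oit3 and -0.068 with Plvap, so these 2 of the 3 short pairs rest on those libraries. In macrophages the medians of these sets were 0.59, 0.87 and 0.70. The highest HSC value of each member fell in 1 of 2 libraries: VavCre- replicate 1 for Lyve1, Oit3, Kdr, Plvap, Pecam1 and Flt4, and replicate 3 labelled VavCre+ for Stab1, Stab2, Cdh5 and Ptprb. These 2 libraries also held the smallest shares of reads on the 12 blood and HSC genes (0.0711% and 0.0931%). The part of this in the correlations was not tested. In macrophages VavCre- replicate 1 was highest for 4 members and VavCre+ replicate 2 for 6, while VavCre- replicates 2 and 3 were the 2 lowest for 7 of the 10.

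**Figure D3:**
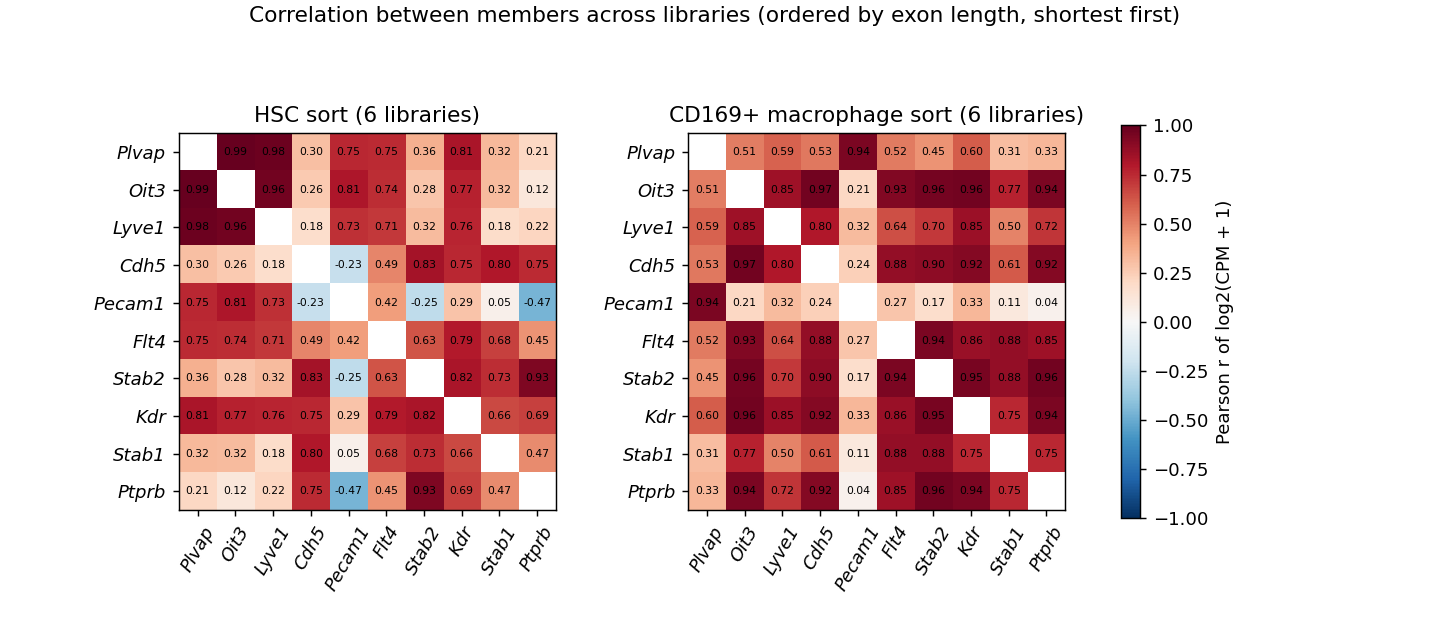
Pearson r of log2(CPM + 1) for each pair of members over 6 libraries, HSC sort on the left and macrophage sort on the right, with genes ordered from the shortest to the longest exonic sequence. In HSCs the block of Plvap, Oit3 and Lyve1 is near 1 (for Lyve1 this rests on 2 libraries, with r of -0.086 and -0.068 without them) and the row of Pecam1 turns negative with Ptprb (-0.47), while in macrophages all 45 pairs are positive and the highest r of Pecam1 is with Plvap (0.94).

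The genes most like the mean of the members, by the smaller of the r in the 2 sorts, were Il6st, the shared receptor chain of interleukin-6 cytokines (0.98 in HSCs and 0.99 in macrophages), Lama4, a laminin chain of vessel basement membranes (0.97 and 0.98), Mcam, the adhesion molecule CD146 (0.95 and 0.95), Chst15, a sulfotransferase of chondroitin sulfate (0.92 and 0.99), and Itga5, the fibronectin receptor chain (0.91 and 0.93). They were ranked among 6182 genes averaging 20 CPM or more in each sort, over 6 libraries each, so that high values arise at the top of such a ranking in any case. Of all ranked genes 4.24% had a smaller r above 0.5, and of 41 other endothelial genes in the ranking 26 (63.4%) did, led by Gpr182, Nrp1 and Eng.

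The genotype comparison addressed what differs in the sorted cells when VavCre is present on the floxed background. No member passed in either sort by the main test, edgeR's quasi-likelihood fit with p-values adjusted by Benjamini and Hochberg's method. In HSCs Pecam1 was the member with the smallest p, and the other members split, with Lyve1, Oit3 and Plvap at lower and Stab1, Stab2, Cdh5 and Ptprb at higher means in libraries labelled VavCre+. In edgeR 0 of 10 members were called in HSCs and 2, both lower, had an unadjusted p under 0.05, where the share called over all 13962 genes tested was 0% (892 genes at an unadjusted p under 0.05, 6.39%, made up of 2.42% higher and 3.97% lower). DESeq2 called 135 of the 13962 genes and 1 of the 10 members. Pecam1 measured 319.6 ± 34.1 CPM in VavCre- and 159 ± 18.1 CPM in HSC libraries labelled VavCre+ (SD, n = 3 each). Its log2 fold change was -1.01 (standard error, SE, 0.19; edgeR unadjusted p = 0.000822, adjusted p = 0.689). The member called by DESeq2 was Pecam1 (adjusted p = 0.00048), and over all alternatives its adjusted p ran from 0.00048 to 1. Its value was lower in 3 of 3 libraries than in any VavCre- library, and leaving out single libraries moved the log2 fold change between -1.10 and -0.93. Non-overlapping groups with lower values were seen for 2 of the 10 members, Pecam1 and Oit3, against 9.33% of genes tested, and with higher values for 0 of 10, against 6.37%. The 12 blood and HSC genes had a median log2 fold change of -0.05 and the 6 megakaryocyte genes of 0.48 in HSCs, while 10 of 12 stellate cell markers were lower (median -0.94, 3 at an unadjusted p under 0.05). The part of these cells in the Pecam1 and Oit3 values was not tested.

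Oit3 measured 2196 ± 1064 and 1197 ± 162 CPM in HSCs (SD, n = 3 each; log2 fold change -0.88, SE 0.32, edgeR unadjusted p = 0.0276, adjusted p = 0.76), and without VavCre- replicate 1 the log2 fold change was -0.42. Plvap followed with -0.66 (SE 0.29, edgeR unadjusted p = 0.0525) and Lyve1 with -0.69 (SE 0.31, edgeR unadjusted p = 0.0571). Without VavCre- replicate 1 these were -0.28 and -0.27. The longer members had log2 fold changes of -0.26 (Kdr, SE 0.39), -0.22 (Flt4, SE 0.40), 0.20 (Stab1, SE 0.41), 0.30 (Stab2, SE 0.32), 0.32 (Cdh5, SE 0.36) and 0.46 (Ptprb, SE 0.32), with edgeR unadjusted p of 0.187 or more. The signs of Kdr, Flt4, Stab1 and Cdh5 turned when single libraries were left out. A higher log2 fold change was seen for 4 members, where 49.7% of genes had one, and a lower for 6, where 50.3% did. The members varied together, so these signs are not independent of each other. The median over the members was -0.24, and that over all genes -0.00. Over genes that averaged 20 CPM or more, the median log2 fold change in HSCs was 0.07 for those under 3 kb of exon, -0.15 for 3 to 6 kb and 0.02 from 6 kb.

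In macrophages 0 of 10 members were called, where 0% of 17806 genes tested were. At an unadjusted p under 0.05 stood 0 members and 965 genes (5.42%, made up of 0.511% higher and 4.91% lower). DESeq2 called 63 of the 17806 genes and 0 of the 10 members. All 10 had a log2 fold change above 0, where 43.9% of genes tested did and 56.1% were lower, from 0.00 (Pecam1, SE 0.34) to 0.69 (Ptprb, SE 0.34, edgeR unadjusted p = 0.0548, adjusted p = 0.961). Since all 45 pairs of members correlated positively over these libraries, the 10 signs are not independent of each other. Ptprb measured 726 ± 398 CPM without and 1174 ± 139.7 CPM with VavCre (SD, n = 3 each). Kdr had 0.45 (SE 0.30), Stab2 0.35 (SE 0.28), Cdh5 0.28 (SE 0.27), Oit3 0.26 (SE 0.30), Lyve1 0.22 (SE 0.31), Flt4 0.15 (SE 0.36), Plvap 0.15 (SE 0.35) and Stab1 0.04 (SE 0.26). Without VavCre- replicate 1 the value of Ptprb was 1.24, of Kdr 0.82, of Stab2 0.77, of Oit3 0.57, of Cdh5 0.50, of Lyve1 0.47 and of Flt4 0.74. In the same fit Stab1 had 0.31, Plvap 0.235 and Pecam1 -0.016. Over single libraries left out, Ptprb ran from 0.46 to 1.24, Kdr from 0.22 to 0.82 and Stab2 from 0.15 to 0.77, and 0 members were called. The lowest values came without VavCre- replicate 3 for Ptprb, VavCre+ replicate 2 for Kdr and VavCre- replicate 2 for Stab2. The median was 0.24 against -0.16 over all genes, and 0 of 10 members separated the groups, where 2.27% of genes did so with higher and 11.8% with lower values. The signs of Stab1, Pecam1, Flt4 and Plvap turned in the same way of leaving out libraries. All 16 macrophage markers had a lower log2 fold change (median -1.10), 2 of them at an unadjusted p under 0.05. So did all 11 stellate markers tested (median -2.61, 4 at an unadjusted p under 0.05, 5 separated), 9 of 12 hepatoblast markers (median -1.20) and 6 of 8 erythroid genes (median -2.55). With the libraries thinned to equal depth all 10 members stayed above 0, from 0.15 (Pecam1) to 0.85 (Ptprb), and 0 were called. The part of the other cell types and of the reads on long genes in these differences was not tested.

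The difference between the sorts was tested as an interaction over all 12 libraries, a positive value meaning that the VavCre+ minus VavCre- difference was larger in macrophages. Of the 10 members 0 were called by edgeR, against 0.0696% of 20128 genes tested, and 0 by DESeq2, which called 747 genes. At an unadjusted p under 0.05 stood 2 members, both with positive values, against 8.62% of genes (3.16% positive and 5.47% negative). A positive interaction was seen for 8 members, where 44.2% of genes had one, and a negative for 2, where 55.8% did. These signs, too, are not independent of each other. Oit3 had an interaction of 1.10 (SE 0.44, edgeR unadjusted p = 0.021, adjusted p = 0.531), Pecam1 1.00 (SE 0.45, unadjusted p = 0.0376, adjusted p = 0.558 in edgeR) and Lyve1 0.88 (SE 0.44, unadjusted p = 0.0556, adjusted p = 0.599 in edgeR). For Stab2 it was 0.01 (SE 0.45). Without HSC VavCre- replicate 1 the interaction was 0.66 for Oit3 and 0.47 for Lyve1, and without macrophage VavCre+ replicate 2 that of Pecam1 was 0.56. So the opposite signs of Lyve1, Oit3 and Plvap in the sorts are not shown to differ.

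**Figure D4:**
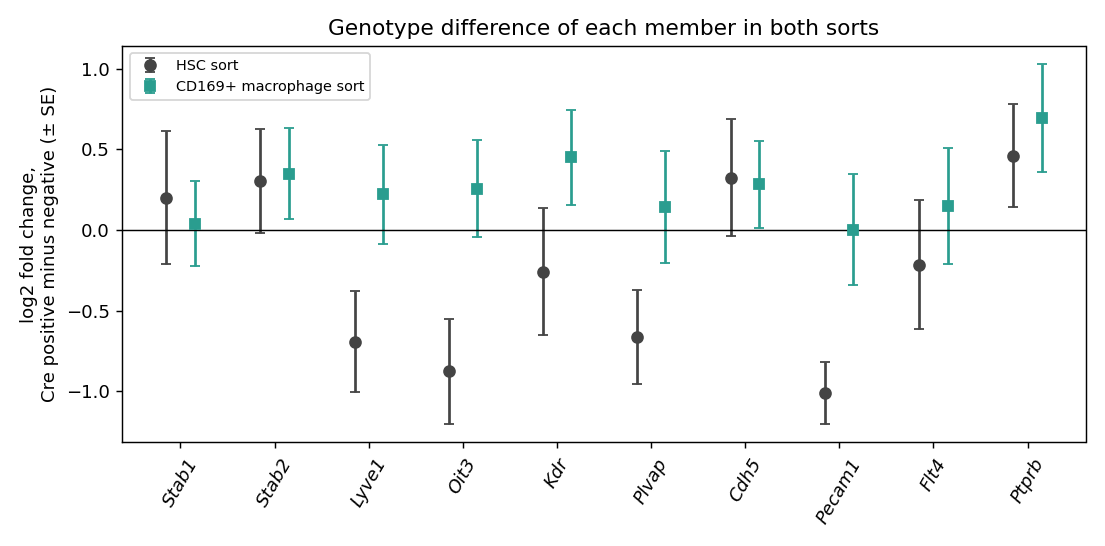
Log2 fold change of each member, VavCre+ minus VavCre-, with its standard error, in the HSC sort (circles) and the macrophage sort (squares). Pecam1 is lowest in HSCs (-1.01), and all macrophage values lie at or above 0.

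Ratios between members within a library do not depend on its scaling. Lyve1 and Plvap kept close to 1 ratio in HSC libraries, 1.51, 1.45 and 1.37 in VavCre- and 1.55, 1.51 and 1.27 in those labelled VavCre+. Stab2 to Lyve1 did not: it was 0.298, 0.441 and 0.333 in VavCre- and 0.573, 0.585 and 0.921 in HSC libraries labelled VavCre+. The ratio of Cdh5 to Pecam1 was 0.426, 0.365 and 0.305 against 0.559, 0.858 and 1.41, and that of Ptprb to Oit3 0.0427, 0.0593 and 0.0466 against 0.111, 0.133 and 0.121. In these 3 ratios each HSC library labelled VavCre+ was above each VavCre- library. Of all 45 ratios between members 19 (42.2%) separated the HSC groups, where 15.4% of all pairs of genes averaging 20 CPM or more did, and in macrophages 5 (11.1%) against 11.5%. The ratios share members and are not independent of each other. In macrophage libraries, counted separately, Stab2 to Lyve1 lay between 3.03 and 5.88 and Cdh5 to Pecam1 between 2.20 and 5.07. The ratios named were chosen after their values were seen.

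**Figure D5:**
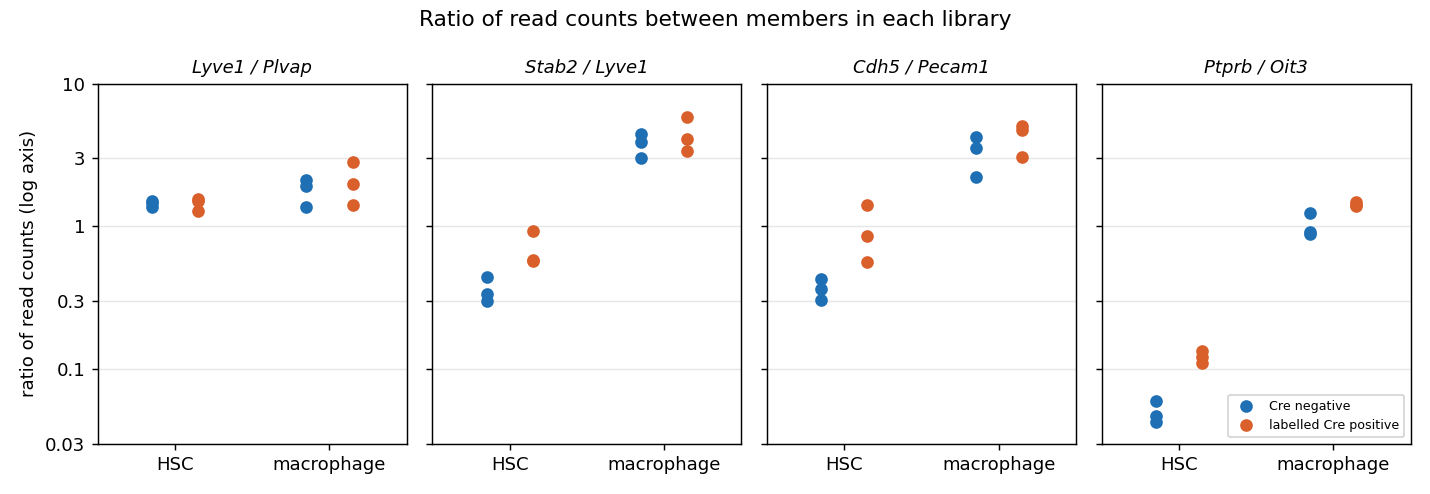
Ratio of read counts between members in each library on a shared log axis, VavCre- in blue and VavCre+ in orange, in both sorts. Lyve1 to Plvap stays between 1.27 and 1.55 in HSC libraries, while the other 3 ratios separate the HSC genotype labels.

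A list of other endothelial genes was described in the same way. Of 43 such genes, all tested in both sorts, 0 passed in either direction within a sort, in edgeR or in DESeq2. For the interaction DESeq2 called 2, Tek and Calcrl, where it called 747 of 20128 genes. In HSCs 34 had a lower and 9 a higher log2 fold change (median -0.23), where 50.3% of genes tested were lower. At an unadjusted p under 0.05 stood 8, all with lower values, where 3.97% of genes tested did. In macrophages 29 had a higher and 14 a lower log2 fold change (median 0.22), where 43.9% of genes tested were higher. At an unadjusted p under 0.05 stood 2, both with higher values, where 0.511% of genes did. Many of these genes varied with the members, so their signs are not independent either. The HSC genes with the smallest p were Tek, the angiopoietin receptor on which VE-PTP acts, at 381, 287 and 272 CPM against 218, 127 and 174 CPM, Esam, a junction molecule, at 1267, 805 and 735 CPM against 634, 587 and 525 CPM, and Cd36, a fatty acid and scavenger receptor, at 1033, 555 and 395 CPM against 344, 379.5 and 254 CPM. The groups did not overlap for these 3 genes, among 4 of the 43 that separated with lower values, against 9.33% of all genes, and 2 with higher values, against 6.37% (edgeR adjusted p of 0.689, 0.689 and 0.697). Tek and Esam are found on HSCs as well. In macrophages the leading genes were F8, coagulation factor VIII, at 320.1, 141 and 169.6 CPM without against 588, 313 and 434 CPM with VavCre, Calcrl, the adrenomedullin receptor, at 355, 338 and 301 CPM against 653, 570.1 and 467 CPM, and the angiocrine ligand Bmp2 at 346, 219 and 237 CPM against 271, 489 and 534 CPM (edgeR adjusted p of 0.773, 0.773 and 1). Of these Calcrl separated the groups. Among the 43 genes 5 separated with higher values in macrophages, against 2.27% of all genes, and 2 with lower values, against 11.8%.

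In the VEGF pathway, 0 of 13 genes tested in HSCs and 0 of 14 in macrophages passed in edgeR, with 0 and 1 at an unadjusted p under 0.05, where 6.39% and 5.42% of all genes were. DESeq2 called 0 in HSCs. It called 1, Vegfb, a ligand of VEGFR1, in macrophages and for the interaction, where it called 63 of 17806 and 747 of 20128 genes. Dll4, a Notch ligand induced by VEGF, measured 229, 82.2 and 149 CPM in VavCre- HSCs and 124, 27 and 33.4 CPM in those labelled VavCre+. Vegfa, the ligand of Kdr, measured 16.1, 11 and 21.2 CPM against 23.8, 21.6 and 62 CPM, and the co-receptor Nrp2 82.1, 68.3 and 62 CPM against 46.3, 64.8 and 42.4 CPM. Their edgeR adjusted p-values were 0.812, 0.821 and 0.879. In macrophages Vegfb measured 43.2, 58.3 and 48.1 CPM without and 1.44, 2.97 and 5.57 CPM with VavCre (log2 fold change -3.89, SE 1.07, edgeR unadjusted p = 0.00201, adjusted p = 0.773). The VavCre+ libraries are the shallow ones, and the 1.44 CPM of replicate 1 lay near the 1.15 CPM that 3 counts make there. Nrp1, a co-receptor of Kdr, measured 460.2, 344 and 372 CPM without and 545, 712 and 461 CPM with VavCre, and Plcg1, a phospholipase downstream of Kdr, 332, 172 and 243 CPM against 393, 420.2 and 250.2 CPM (edgeR adjusted p of 1 for both). The nearest Nrp1 libraries of the groups were at 460.2 and 460.6 CPM.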

How the data were processed

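Bulk RNA was measured in 12 libraries, 3 in each of 4 groups, made with SMART-Seq v4, a kit that does not mark strand. The deposited values are whole-number read counts per gene, raw by their differing totals. Per the submitters' processing notes, STAR 2.7.6a, featureCounts and Subread 2.0.1 were used for HSCs, with builds GRCm38 and mm10. The notes on macrophages name mm10 alone, and its aligner is not given in the sources used here, nor is its counter. Macrophage cDNA had 11 amplification cycles from 1 ng of RNA, per the labels' protocols.

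Each table was fitted alone with edgeR 4.0.16 in R 4.3.3 (filterByExpr, TMM, robust quasi-likelihood test), with adjustment over all genes tested at 0.05, and the interaction on 32210 shared identifiers. CPM are counts over TMM-scaled totals of the genes kept. Each SE is the size of the log2 fold change over the root of F. A count of 0 allows up to 3 counts, which is 0.0387 to 1.15 CPM by library, for counting error only. Exon length is that of merged exons in GENCODE M21. Correlations used log2(CPM + 1) and 720 exact pairings. The fits were tested on simulated data, where 96.5% (HSC), 96% (macrophages) and 52.5% (interaction) of 200 genes changed by 2 log2 units were recovered. The simulated counts had a fixed dispersion that was not taken from these data, and the changed genes averaged more than 20 CPM. These shares therefore check the code and do not measure how often such changes would be found in these libraries. Alternatives were DESeq2 1.42.0, other scalings and filters, thinning to equal depth, the replicate number as a block, and each library left out. Named genes are the members, up to 3 per gene list with the smallest p, the 5 genes of most similar pattern, and defining markers. The members and lists were chosen with earlier results of these data known.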

Additional observations from a re-analysis of the deposited data

How the results depend on the processing

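VavCre+ macrophage libraries hold fewer reads than all others, and thinned to equal depth the macrophage libraries gave 0 genes called and members at 0.15 to 0.85. Genes called in HSCs were 0 in edgeR and 135 in DESeq2, and 0 to 0 with single libraries left out. In macrophages they were 0, against 63 in DESeq2, 21 with no filter on low counts and 1 to 34 with single libraries left out. For the interaction they were 14, against 747 in DESeq2, 9 with upper-quartile factors, 8 on plain totals, 107 with no filter and 6 to 210 with single libraries left out. The causes were not tested. Pecam1 in HSCs passed in DESeq2 (log2 fold change -0.98). With no filter, the macrophage values of Stab1 and Pecam1 were -0.024 and -0.064. The interaction of Cdh5 was 0.019 in DESeq2, 0.019 with RLE factors, 0.027 on plain totals and 0.10 with upper-quartile factors. TMM put the median of all genes in macrophages at -0.16, upper-quartile factors at -0.00 and plain totals at 0.05. Same-numbered libraries did not deviate together (correlations of -0.03 to 0.03). With so few libraries a group, this cannot exclude that the numbers pair them. With the replicate block 0 genes were called in HSCs, 13 in macrophages and 96 for the interaction, and Pecam1 in macrophages was -0.086 and the interactions of Stab1 and Cdh5 were 0.028 and 0.029. With single libraries left out, signs turned in HSCs for Stab1 (-0.41 to 0.50), Kdr (-0.58 to 0.19), Cdh5 (-0.11 to 0.55) and Flt4 (-0.46 to 0.18). In macrophages they turned for Stab1 (-0.14 to 0.31), Plvap (-0.38 to 0.31), Pecam1 (-0.46 to 0.14) and Flt4 (-0.10 to 0.74). For the interaction they turned for Stab1 (-0.49 to 0.42), Stab2 (-0.21 to 0.51), Cdh5 (-0.29 to 0.37), Flt4 (-0.045 to 1.00) and Ptprb (-0.079 to 0.82). Positive pairs of members numbered 36 to 43 in HSCs and 35 to 45 in macrophages.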
